A study of Mus musculus with 8 samples.

Results

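The 6 immunoglobulin and B lineage transcripts described here were measured in activated CD8+ T cells: Ighm and Ighd, which encode the IgM and IgD heavy chain constant regions; Zfp318, a nuclear zinc finger protein; Cd22, an inhibitory lectin; and Cd79a and Cd79b, the signalling chains of the B cell receptor. They are 6 of 43432 genes in the deposited expression table, found there by symbol, and each symbol matched 1 gene. The genes were picked with their levels in these libraries already known, so those levels are given as a description and no p-value is attached to them. All libraries came from OTI CD8+ T cells of C57BL/6 mice, which carry a transgenic receptor for an ovalbumin peptide, and they were sequenced from total RNA of T cells that had divided after 72 h of culture with dendritic cells (DC) bearing antigen.

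The partner of the T cells defined the groups. In 3 libraries it was the migratory CD103+ DC (CD103 DC), in 3 libraries the lymph node resident CD8a+ DC (CD8a DC), and in 2 libraries the migratory CD11b+ DC (CD11b DC, whose libraries carry the replicate numbers 2 and 3). The labels give neither the source of the antigen nor whether replicates were separate cultures or animals, so the spread between libraries may be technical. Levels are the authors' normalized counts, which are reads per gene divided by 1 size factor per library, and the libraries held 16293042 to 21973391 reads. T cell markers were detected in all libraries, 10 of 10 genes, at summed levels of 107735.6 to 113470.8 normalized counts in CD103 DC libraries, 92657.8 to 113419.0 in CD8a DC libraries and 110598.7 to 126028.4 in CD11b DC libraries. Markers of DC were present too, summing to 6109.4 to 7142.4, 1933.8 to 4338.7 and 6236.9 to 8544.5 normalized counts in the same order of groups. Mitochondrially encoded transcripts made up 6.69% to 7.72% of the reads in CD103 DC libraries, 9.12% to 11.8% in CD8a DC libraries and 7.02% to 7.2% in CD11b DC libraries. In such bulk samples, fewer cells of a type and less RNA per cell cannot be told apart.

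In B cells the mu and delta constant exons lie side by side downstream of the rearranged variable exon, and IgM and IgD messages are made from the same long transcript by alternative splicing and polyadenylation. Zfp318 is required for IgD expression in mouse B cells, where it acts on the choice between the mu and delta exons. Surface immunoglobulin signals through the CD79a and CD79b heterodimer, whose tails carry activation motifs, and CD22 binds sialylated glycans and recruits phosphatases that dampen that signal. T cells do not complete heavy chain rearrangement, but an enhancer between the J segments and the mu exons can drive germline ("sterile") transcripts of the locus in T lineage cells.

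The heavy chain genes lie on the minus strand of mouse chromosome 12 in build GRCm38, and transcription runs from the J segments through Ighm (113418558 to 113422730) to Ighd (113406604 to 113416324). Between the annotated ends of Ighd and Ighm lie 2234 bases, and between Ighm and the nearest J segment, Ighj4, 5784 bases. Reads were assigned to single germline segments as well, and the most read of these are printed here from the GENCODE M21 transcripts because they held most of the reads assigned to V, D and J segments. Capitals mark the start of the codons for the tryptophan and glycine that J segments share, 5′ to 3′ on the minus strand, with Ighj1 at chr12:113429781-113429833 and Ighj4 at chr12:113428514-113428567.
Ighj1: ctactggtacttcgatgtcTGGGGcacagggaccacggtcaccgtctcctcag
Ighj4: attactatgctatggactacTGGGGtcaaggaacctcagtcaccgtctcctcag

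Among the other genes, Zfp318 lies on the plus strand of chromosome 17 (46383731 to 46420920), Cd22 and Cd79a on chromosome 7 (30865402 to 30880342, minus strand, and 24897381 to 24902197, plus strand) and Cd79b on the minus strand of chromosome 11 (106311341 to 106314762). RefSeq promoter windows of GRCm38.p6, from 250 bases before to 50 after the start, were found for 3 of the 6 genes. The windows of Zfp318 (chr17:46383516-46383815, plus strand) and Cd22 (chr7:30878979-30879278, minus strand) are printed because both genes were highest in the same libraries. In all 5 motifs were searched on both strands: the octamer ATGCAAAT, the E box CAGGTG, the ETS motif GGAAGT, the EBF motif (TCCC and GGGA around any pair of bases, which reads the same on both strands) and the RUNX motif TGTGGT, none of which is contained in another. Capitals mark matches, read 5′ to 3′ on the strand of the gene.
Zfp318: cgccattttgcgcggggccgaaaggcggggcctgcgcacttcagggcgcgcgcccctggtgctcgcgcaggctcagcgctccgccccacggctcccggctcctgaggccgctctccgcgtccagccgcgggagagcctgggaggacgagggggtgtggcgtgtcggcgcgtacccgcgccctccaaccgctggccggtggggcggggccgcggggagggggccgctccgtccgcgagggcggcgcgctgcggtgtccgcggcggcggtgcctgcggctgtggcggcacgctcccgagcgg
Cd22: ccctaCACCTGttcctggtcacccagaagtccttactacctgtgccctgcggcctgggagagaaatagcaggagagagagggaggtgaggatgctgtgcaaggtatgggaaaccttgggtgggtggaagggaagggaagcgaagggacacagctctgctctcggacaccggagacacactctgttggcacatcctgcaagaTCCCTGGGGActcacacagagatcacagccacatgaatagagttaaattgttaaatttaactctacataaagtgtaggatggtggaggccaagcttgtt
In the Cd22 window, 1 E box, read on the opposite strand, and 1 EBF motif were found. Over 32851 RefSeq promoter windows of the same length, 20.2% held the E box and 0.904% the EBF motif. The Zfp318 window held no match to the 5 motifs, and its GC content was 80.0%, against 52.3% in the Cd22 window and 53.8% over all windows.

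Ighm was abundant in every library. It had 19849.4, 17295.8 and 17415.3 normalized counts in the CD103 DC libraries, 21483.6, 24069.8 and 17866.2 in the CD8a DC libraries, and 21103.6 and 21880.7 in the CD11b DC libraries. The CD103 DC and CD8a DC libraries overlapped, whereas every CD103 DC library stood below both CD11b DC libraries. Group means were 18186.8 ± 1441.1 (SD, n = 3), 21139.9 ± 3116.1 (SD, n = 3) and 21492.2 ± 549.5 normalized counts (SD, n = 2). Differences of mean log2(normalized count + 1) were -0.21 for CD103 DC over CD8a DC, -0.24 for CD103 DC over CD11b DC and -0.03 for CD8a DC over CD11b DC. The last was 0.08 without CD8a DC replicate 3. Ighm took 0.0928% to 0.121% of all reads of a library.

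Ighd behaved otherwise. Its levels were 1791.4, 1901.9 and 1786.1 normalized counts in the CD103 DC libraries, 839.3, 1131.6 and 742.6 in the CD8a DC libraries, and 758.9 and 714.4 in the CD11b DC libraries. Every CD103 DC library was above all 5 other libraries, and the CD8a DC and CD11b DC libraries overlapped. Means were 1826.5 ± 65.4 with CD103 DC, 904.5 ± 202.5 with CD8a DC (SD, n = 3 each) and 736.6 ± 31.5 with CD11b DC (SD, n = 2). On the log2 scale Ighd differed by 1.04 for CD103 DC over CD8a DC, by 1.31 for CD103 DC over CD11b DC and by 0.27 for CD8a DC over CD11b DC. With each of the 8 libraries left out in turn these differences ranged from 0.91 to 1.21, from 1.26 to 1.35 and from 0.10 to 0.40.

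The ratio of both genes within a library does not depend on the scaling between libraries. The CD103 DC libraries held 9.03, 11 and 10.3 Ighd reads per 100 Ighm reads, the CD8a DC libraries 3.91, 4.70 and 4.16, and the CD11b DC libraries 3.60 and 3.27. No library of the CD103 DC group came near the others. As a share of the reads of both genes, Ighd gave 8.28% in the lowest CD103 DC library (Wilson 95% interval 7.92% to 8.65%), against 4.49% in the highest of the other libraries, replicate 2 of the CD8a DC group (4.25% to 4.74%). These intervals cover counting error only and treat each read as independent, although reads were not counted by molecule. Per kilobase of exon, the mean level of Ighm was 9643.1 ± 764.1 and that of Ighd 961.3 ± 34.4 normalized counts in the CD103 DC group (SD, n = 3). The same levels were 11208.8 ± 1652.2 and 476.1 ± 107 in the CD8a DC group (SD, n = 3), and 11395.6 ± 291.4 and 387.7 ± 16.6 in the CD11b DC group (SD, n = 2).

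Zfp318, like Ighd, was highest in the CD103 DC libraries. It had 2310.3, 2345.7 and 2575.7 normalized counts with CD103 DC, 942.5, 1160.6 and 1287.9 with CD8a DC, and 1188.9 and 1017.7 with CD11b DC. All CD103 DC libraries exceeded the other 5, and the CD8a DC and CD11b DC libraries overlapped. Mean levels were 2410.6 ± 144.1 and 1130.3 ± 174.7 (SD, n = 3 each) and 1103.3 ± 121.1 (SD, n = 2), in that order of groups. The log2 differences were 1.10 for CD103 DC over CD8a DC, 1.13 for CD103 DC over CD11b DC and 0.03 for CD8a DC over CD11b DC. The last ranged from -0.08 to 0.15 over the libraries left out in turn. A small RNA gene, Gm23037, lies within Zfp318 on the same strand, with a mean of 13.3 normalized counts. Of the nearest genes with reads, Abcc10, a transporter, had 219.7 ± 46.6, 222.5 ± 60.0 and 257.8 ± 36.5 normalized counts in the CD103 DC, CD8a DC and CD11b DC groups, and Gm5093 stayed at 2.53, 3.80 and 7.30.

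**Figure D1:**
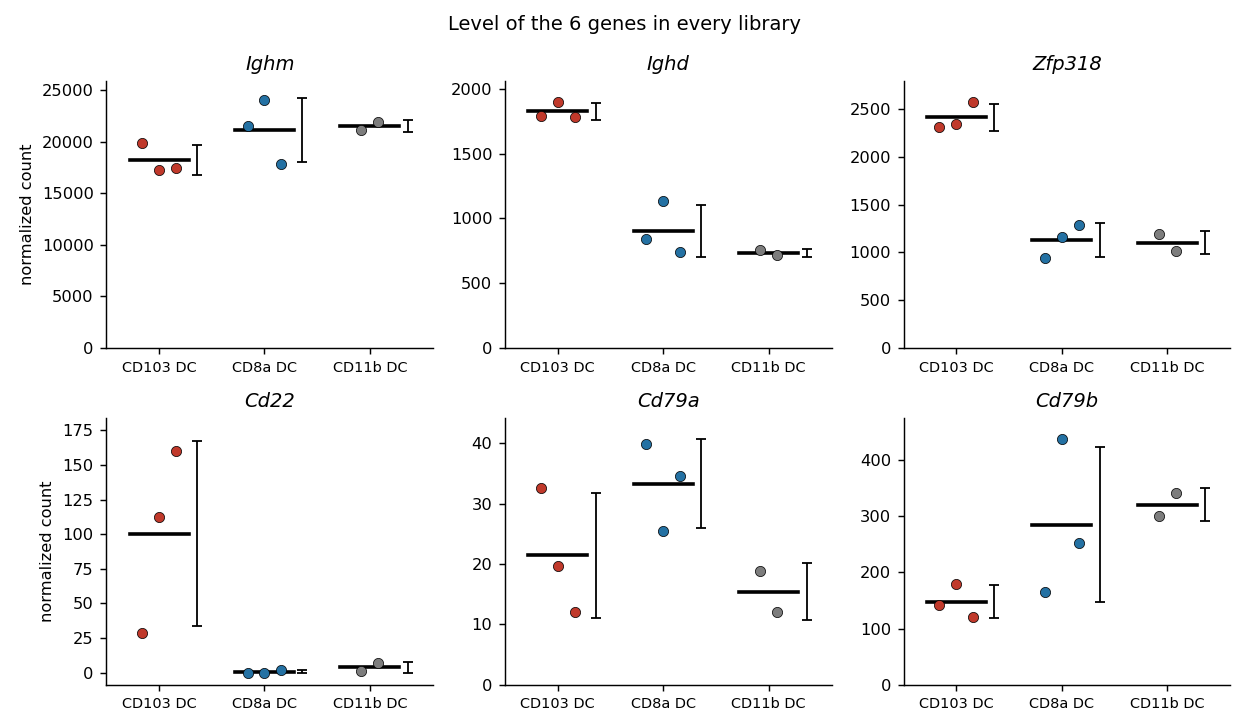
Normalized count (vertical axes, starting at or just below 0) of the 6 genes in the CD103 DC, CD8a DC and CD11b DC libraries; points are libraries, horizontal bars are group means and error bars are SDs (n = 3, 3 and 2). Ighd, Zfp318 and Cd22 were higher in all 3 CD103 DC libraries than in the other 5, while Ighm, Cd79a and Cd79b had overlapping CD103 DC and CD8a DC libraries.

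**Figure D2:**
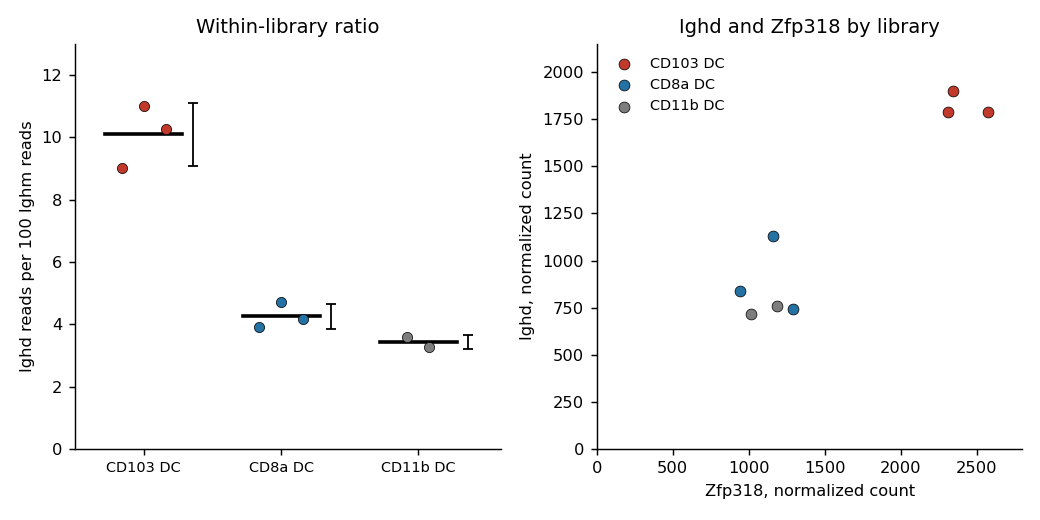
Left, Ighd reads per 100 Ighm reads in each library (points), with group means (bars) and SDs (error bars), n = 3, 3 and 2; right, the normalized count of Ighd (vertical) against that of Zfp318 (horizontal) in the same libraries. The CD103 DC libraries lie between 9.03 and 11 reads and the others between 3.27 and 4.70, and in the right panel the CD103 DC libraries form a separate group at upper right.

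Cd22 was read mainly in the CD103 DC group. It had 28.6, 112.1 and 160.3 normalized counts there, 0, 0 and 2.0 in the CD8a DC libraries, and 0.9 and 6.6 in the CD11b DC libraries. Every CD103 DC library was above the other 5, and the CD8a DC and CD11b DC libraries overlapped. The CD103 DC libraries differed widely among themselves, with replicate 1 far below the other two. These levels stood on 321 reads with CD103 DC, 2 reads with CD8a DC and 7 reads with CD11b DC. Relative to the library totals, Cd22 reads were 155.8 times as frequent with CD103 DC as with CD8a DC (exact 95% interval 42.8 to 1292.1) and 29.6 times as frequent as with CD11b DC (14.2 to 74.2), where the intervals cover counting error only. In replicates 1 and 2 of the CD8a DC group, a count of 0 allows up to 3 reads, or 3.52 and 2.72 normalized counts. The log2 difference for CD103 DC over CD8a DC was 5.82, which became 3.95 with a pseudocount of 5 in place of 1 and was 6.55 when CD103 DC replicate 1 was left out. For CD103 DC over CD11b DC it was 4.42, with a range of 3.42 to 5.42 over the libraries left out in turn. An antisense gene that overlaps Cd22, Gm29439, was listed at 0 in all libraries. The nearest genes with reads were Sbsn, at 72.0 ± 33.0, 69.7 ± 63.5 and 62.1 ± 45.9 normalized counts in the CD103 DC, CD8a DC and CD11b DC groups, and Hamp, which encodes hepcidin, at 1.30, 0.900 and 4.40.

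Neither chain of the signalling heterodimer followed Cd22. Cd79a was scarce, with 32.6, 19.6 and 12.1 normalized counts in the CD103 DC libraries, 39.9, 25.4 and 34.6 in the CD8a DC libraries, and 18.8 and 12.1 in the CD11b DC libraries, which amounted to 67, 96 and 32 reads by group. The CD103 DC libraries overlapped with both other groups, and the CD8a DC libraries were all above the CD11b DC libraries. Its log2 differences were -0.69 for CD103 DC over CD8a DC, 0.37 for CD103 DC over CD11b DC and 1.07 for CD8a DC over CD11b DC. With each library left out in turn they ranged from -1.04 to -0.36, from 0.03 to 0.71 and from 0.77 to 1.37. The ends of the first and second range came from leaving out CD103 DC replicate 1 (-1.04 and 0.03) and replicate 3 (-0.36 and 0.71). Arhgef1, a guanine nucleotide exchange factor gene whose annotated span lies 715 bases from that of Cd79a, had 15291.9 ± 720.9, 16708.5 ± 1379.6 and 17557.5 ± 175.0 normalized counts in the CD103 DC, CD8a DC and CD11b DC groups. Its share in the few Cd79a reads was not tested.

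Cd79b was read more often than Cd79a in every library. It had 142.0, 179.4 and 121.2 normalized counts in the CD103 DC libraries, 165.3, 436.1 and 252.3 in the CD8a DC libraries, and 300.1 and 340.7 in the CD11b DC libraries. The CD103 DC libraries lay below both CD11b DC libraries and overlapped with the CD8a DC libraries, among which replicate 2 was the highest. The log2 differences were -0.85 for CD103 DC over CD8a DC, -1.13 for CD103 DC over CD11b DC and -0.28 for CD8a DC over CD11b DC, and over the libraries left out in turn the first ranged from -1.18 to -0.49 (without CD8a DC replicates 1 and 2) and the last from -0.64 to 0.05. Cd79b reads per Cd79a read came to 4.36, 9.14 and 10.0 with CD103 DC, 4.15, 17.2 and 7.29 with CD8a DC, and 16.0 and 28.2 with CD11b DC, although the exons of Cd79b and Cd79a are similar in length (1431 and 1457 bases). The nearest genes with reads, Tcam1 and Scn4a, averaged at most 10.5 and 3.10 normalized counts in any group.

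Taking the 6 genes as a set, 3 had CD103 DC libraries that did not overlap with the CD8a DC libraries, all of them higher (Ighd, Zfp318 and Cd22), where 16.5% of the 18971 genes with a mean of at least 1 normalized count did so in either direction and 8.77% were higher. Against the CD11b DC libraries, 3 were higher (the same genes by name) and 2 lower (Ighm and Cd79b), where the share over all genes was 28.1%, with 14% higher and 14.2% lower. For CD8a DC over CD11b DC, 1 gene did not overlap (Cd79a, higher), with a share of 27.9% over all genes and 12.8% higher. Levels above those of all 5 other libraries in each CD103 DC library were found for Ighd, Zfp318 and Cd22 and for 3.16% of all genes. As the genes were chosen on such contrasts, nothing is read from these counts. The comparisons share libraries and are not independent of each other.

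**Figure D3:**
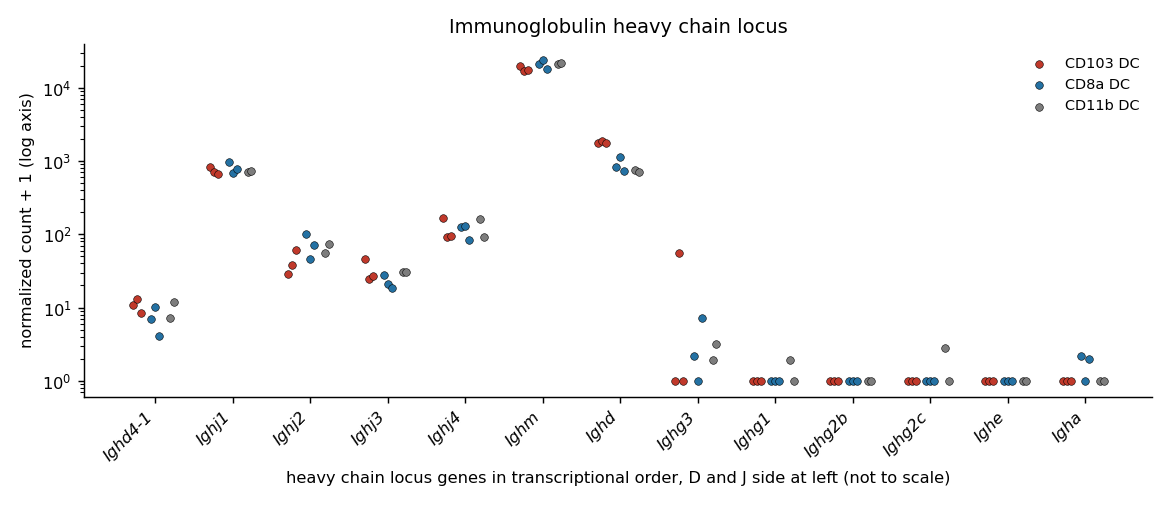
Normalized count + 1 (vertical log axis) of the D segment nearest to the J segments, the 4 J segments and the constant genes of the heavy chain locus, in transcriptional order from left to right; each point is a library, coloured by group. Ighj1, Ighm and Ighd stand out in all libraries, Ighd is higher in the 3 CD103 DC libraries, and the constant genes after Ighd are at or near 0 except Ighg3 in 1 CD103 DC library.

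Reads of the heavy chain locus lay mostly between the J segments and Ighd. Ighj1 had 740.1 ± 83.7 normalized counts with CD103 DC, 807.0 ± 142 with CD8a DC (SD, n = 3 each) and 723.2 ± 21.8 with CD11b DC (SD, n = 2). Ighj4 had 116.5 ± 41.0, 112.3 ± 25.9 and 125.4 ± 46.9 in the same order of groups, Ighj2 41.6 ± 16.5, 71.7 ± 27.2 and 63.7 ± 14.0, and Ighj3 31.6 ± 12.0, 21.4 ± 5.02 and 29.7 ± 0.0707. The CD103 DC libraries overlapped with both other groups for each J segment, unlike for Ighd. For Ighj3 the CD8a DC libraries (27.0, 19.9 and 17.3) lay below the CD11b DC libraries (29.6 and 29.7). Past Ighd, Ighg3 reached 54.2 normalized counts in replicate 2 of the CD103 DC group and at most 6.10 in any other library, Ighg1, Ighg2c and Igha reached at most 1.80, and Ighg2b and Ighe were at 0 in all libraries. Heavy chain variable segments were almost unread: 21 of 175 were above 0 in any library, and their sum ranged from 8.10 to 92.3 normalized counts. The 20 D segments summed to 11.2 to 49.4 normalized counts and the 4 J segments to 852.1 to 1216.8.

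Light chains were close to absent. Igkc, the kappa constant gene, had 73.0, 34.6 and 0 normalized counts in the CD103 DC libraries, 32.8, 0 and 1.0 in the CD8a DC libraries, and 6.30 and 6.60 in the CD11b DC libraries. Iglc2, a lambda constant gene, was read in replicate 2 of the CD103 DC group only, at 27.1. Among 103 kappa variable segments, 6 were above 0 in any library, and their sum was at most 20.3 normalized counts. How reads that join a variable or J segment to a constant exon were assigned is not stated in the labels.

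Of 10 defining B cell markers, 3 to 7 were above 0 in a CD103 DC library, 2 to 5 in a CD8a DC library and 3 to 5 in a CD11b DC library. Their levels summed to 259.6, 262.5 and 31.6 normalized counts in the CD103 DC libraries, 105.4, 103.4 and 79.3 in the CD8a DC libraries, and 122.7 and 90.1 in the CD11b DC libraries. Cr2, a complement receptor, made up most of the sum, with 149.0, 154.1 and 24.2, then 53.9, 93.4 and 47.8, then 77.0 and 81.3 normalized counts. Pax5, the factor that fixes B cell identity, was at 0 in all libraries, and Ms4a1, which encodes CD20, was read in replicate 2 of the CD103 DC group alone (3.70). None of the 7 tested B cell markers passed in any comparison by limma (0 at an unadjusted p under 0.05, and 0 by edgeR and DESeq2). The CD103 DC library with the most Cd22, replicate 3, had the lowest sum of these markers (31.6). Replicates 1 and 2 of that group had the highest sums of all libraries (259.6 and 262.5). The part of B cells in the Cd22 level was not tested.

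Markers of other cells also differed between the groups in which Ighd, Zfp318 and Cd22 differed. By limma's moderated test with Benjamini-Hochberg adjustment over all 18971 genes, 4 of 15 tested DC markers were higher and 0 lower for CD103 DC over CD8a DC (median log2 difference 1.40, against 0.02 over all genes), where 1.44% of all genes passed (169 higher, or 0.891%, and 104 lower, or 0.548%). Scaling to library totals gave 210 higher and 74 lower, and the total of 273 was 3 when either CD11b DC library was left out (149 and 148 by edgeR). H2-Aa, an MHC class II chain, had 412.3, 280.2 and 498.7 normalized counts with CD103 DC, 61.0, 82.5 and 80.4 with CD8a DC, and 48.4 and 57.1 with CD11b DC (log2 difference 2.37 for CD103 DC over CD8a DC, adjusted p = 0.00709 by limma, and 0.0723 to 0.0818 without CD103 DC replicate 1 or 3 or either CD11b DC library). Flt3, Ccl22 and Cd74 were the other 3, with differences of 1.78, 1.40 and 1.81 and adjusted p of 0.0272, 0.0265 and 0.0458 by limma; each missed the threshold when any 1 CD103 DC library, CD8a DC replicate 1 or any 1 CD11b DC library was left out, and Cd74 also by edgeR (0.122). For CD103 DC over CD11b DC, H2-Aa was higher (2.85, adjusted p = 0.012 by limma, and 0.0807 to 0.321 when any 1 CD103 DC or CD11b DC library was left out) and Sirpa, a receptor of CD11b+ DC, lower (-5.14, adjusted p = 0.0476; 0.185 by edgeR), where 0.332% of all genes passed, 0.132% higher and 0.2% lower. For CD8a DC over CD11b DC, 3 of the 15 were lower (Ccl22, Ccl17 and Sirpa) and 0 higher by limma. Over all genes 1.97% passed in that comparison, 1.07% higher and 0.901% lower. Of the 15, 12 had a positive difference for CD103 DC over CD8a DC and 10 for CD103 DC over CD11b DC, whether or not they passed. The 3 with a negative difference for CD103 DC over CD8a DC were Itgax, Clec9a and H2-Ab1. For CD103 DC over CD11b DC the 5 were Itgax, H2-Ab1, Ccl17, Ccl22 and Sirpa. Itgax was at 0 in all CD103 DC libraries and reached 46.6 normalized counts in CD11b DC replicate 2. Clec9a had 3.9, 5.6 and 0 with CD103 DC, 35.2, 89.8 and 2.0 with CD8a DC, and 0 with CD11b DC. H2-Ab1 averaged 45.8, 59.1 and 106.2 in the CD103 DC, CD8a DC and CD11b DC groups. Ccl22 had the highest mean of the DC markers over all libraries (2759.4 normalized counts). It had 2712.8, 2631.5 and 3175.1 with CD103 DC, 1191.0, 1714.6 and 607.3 with CD8a DC, and 5910.4 and 4132.4 with CD11b DC. The other 15 DC markers of the list summed to 3757.4, 3477.9 and 3967.3 with CD103 DC, 1338.9, 2624.1 and 1326.5 with CD8a DC, and 2634.1 and 2104.5 with CD11b DC. Ccl22 was above the sum of these others in the CD11b DC libraries only. In the sum without Ccl22, each CD103 DC library was above the other 5. With Ccl22 included, CD11b DC replicate 2 (8544.5) was above every CD103 DC library. Among the single genes of the sum without Ccl22, only Flt3, Irf8, H2-Aa and Cd74 had every CD103 DC library above the other 5. Setting Ccl22 apart was decided after its values were seen. Cd209a was the DC marker at 0 in all libraries. Among markers of plasmacytoid DC, which express some B lineage genes, 0 of 5 tested passed in any comparison by limma. At most 1 had an unadjusted p under 0.05 by limma in a comparison, 0 passed by edgeR and at most 1 by DESeq2. Siglech reached 1.0 normalized count in 1 library, and Klk1 and Cd300c were at 0. Ly6c2, Pacsin1, Bst2 and Tcf4 of the same list were read in all 8 libraries. Mean levels of Ly6c2 by group were 895.0, 780.8 and 1761.4 normalized counts, in the order CD103 DC, CD8a DC and CD11b DC. In that order Pacsin1 averaged 451.1, 538.2 and 597.2, Bst2 217.8, 266.1 and 307.2, and Tcf4 187.6, 182.8 and 178.9. Of the macrophage and monocyte markers 0 of 5 tested passed in any comparison by limma. At most 1 of these had an unadjusted p under 0.05 by limma, 0 passed by edgeR and at most 1 by DESeq2. Adgre1, Cd14, Fcgr1 and C1qb were at 0, whereas Cd68 and Ccr2 were read in all 8 libraries. Cd68 averaged 294.8, 204.1 and 191.5 normalized counts and Ccr2 3.47, 62.4 and 90.9, in the same order of groups. The part of these other cells in the levels of the 6 genes was not tested.

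Related B lineage genes were compared in 7 lists of 68 genes, of which 66 were in the table and 50 had a mean of at least 1 normalized count. For CD103 DC over CD8a DC, 1 of the 50 was higher and 1 lower by limma, or 4.0%, with a median log2 difference of 0.14 against 0.02 over all genes. For CD103 DC over CD11b DC, 0 of 50 passed by limma (7 at an unadjusted p under 0.05; 0 by edgeR and 2 by DESeq2), with a median of -0.09 against -0.002. For CD8a DC over CD11b DC, 1 was higher and 0 lower, or 2.0%, where 1.97% of all genes passed (203 higher, or 1.07%, and 171 lower, or 0.901%; 166 and 214 with scaling to library totals, and 0 by limma when either CD11b DC library was left out, with 49 and 40 by edgeR), and the median was -0.16 against -0.04.

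The gene that was higher with CD103 DC than with CD8a DC was St6gal1, the sialyltransferase that makes the glycan bound by CD22. It had 3673.6, 3396.6 and 4157.6 normalized counts in the CD103 DC libraries, 1872.1, 2751.0 and 1096.6 in the CD8a DC libraries, and 2179.8 and 2132.1 in the CD11b DC libraries. Its log2 difference was 1.07 ± 0.24 (SE; adjusted p = 0.0437 by limma), all CD103 DC libraries were above the other 5, and edgeR's quasi-likelihood test gave an adjusted p of 0.0674. The call held without CD8a DC replicate 2 or 3, and with any 1 other library left out the adjusted p was 0.11 to 0.266. In the list of 7 genes for the synthesis of CD22 ligands, the other 6 did not pass for CD103 DC over CD8a DC by limma (2 of the 7 passed by DESeq2, St6gal1 among them, and 0 by edgeR). Cmas, which activates sialic acid and was chosen after its values were seen, had 1266.6 ± 146, 2002.9 ± 258 and 1516.9 ± 222 normalized counts (difference -0.66, adjusted p = 0.0541 by limma for CD103 DC over CD8a DC). Cmah, the hydroxylase that makes the preferred ligand of mouse CD22, was the most abundant of the list, with 8225.7 ± 631, 9357.3 ± 1286 and 11654.3 ± 373 normalized counts in the CD103 DC, CD8a DC and CD11b DC groups.

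Among 10 tested genes of the B cell surface, 1 was lower and 0 higher for CD103 DC over CD8a DC by limma (1 called by edgeR and 2 by DESeq2). This was Tnfrsf13c, the receptor for the survival factor BAFF, with 149.0, 222.3 and 193.0 normalized counts in the CD103 DC libraries, 417.3, 748.0 and 368.3 in the CD8a DC libraries, and 419.3 and 415.4 in the CD11b DC libraries (log2 difference -1.38 ± 0.29, SE, adjusted p = 0.0337 by limma). The call held by edgeR (0.0307) and without CD8a DC replicate 3, and with any 1 other library left out the adjusted p was 0.0682 to 0.182. All 3 CD103 DC libraries lay below the other 5, and against CD11b DC the difference was -1.16 (adjusted p = 0.202 by limma). Tnfrsf13b, which encodes the related receptor TACI and was the most abundant of the list, had 1599.5 ± 267, 1078.5 ± 270 and 1689.9 ± 67.5 normalized counts by group. Cd72, a coreceptor with inhibitory function, had 348.2 ± 54.7, 349.2 ± 107 and 569.8 ± 50.6 normalized counts, and neither gene passed in any comparison by limma.

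Of 8 tested B cell transcription factors, 1 passed by limma, in the comparison of CD8a DC over CD11b DC. DESeq2 called 1 there and 1 for CD103 DC over CD8a DC, where limma and edgeR called 0 (1 at an unadjusted p under 0.05 by limma). Pou2af1, the octamer factor coactivator, had 1383.2, 1731.8 and 1358.0 normalized counts with CD8a DC, against 733.8 and 896.8 with CD11b DC, and 990.4, 1114.4 and 1029.1 with CD103 DC (difference 0.87 ± 0.18, SE, adjusted p = 0.0233 by limma; 0.0272 by edgeR). Without CD103 DC replicate 1 or 2 the adjusted p was 0.0526 and 0.0501, and without CD11b DC replicate 2 or 3 it was 0.297 and 0.157. Pou2af1 was highest in the group where Cd79a was highest, although Cd79a rested on only 96 reads there. A link between these genes was not tested. Bach2, a repressor of effector differentiation in B and T cells, was the most abundant of the list at 5883.5 ± 513, 6758.1 ± 895 and 6104.6 ± 783 normalized counts, and Tcf3, an E box binding factor, stood at 1460.9 ± 67.7, 1560.9 ± 220 and 1500.7 ± 305.

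In the list of B cell receptor signalling genes, 0 of 10 tested passed in any comparison by limma, with 3, 1 and 2 at an unadjusted p under 0.05 for CD103 DC over CD8a DC, CD103 DC over CD11b DC and CD8a DC over CD11b DC (0 by edgeR; 2, 0 and 2 by DESeq2). Ptpn6, the phosphatase recruited by CD22, was the most abundant, with 3490.0 ± 424, 2415.2 ± 651 and 2563.9 ± 71.3 normalized counts in the CD103 DC, CD8a DC and CD11b DC groups, followed by Dapp1, an adaptor, with 1844.0 ± 113, 1550.1 ± 185 and 1593.2 ± 190. The kinase Syk, chosen after its values were seen, had 48.8 ± 3.23, 7.53 ± 3.76 and 40.6 ± 7.99 normalized counts (difference 2.63 for CD103 DC over CD8a DC, adjusted p = 0.0951 by limma), so that the level in CD11b DC libraries, unlike that of Cd22, was near that in CD103 DC libraries. Blnk, the adaptor of the B cell receptor, was at 0 in all CD103 DC libraries and reached 13.2 in 1 CD11b DC library, and Blk, a B cell kinase, was read in 1 CD8a DC library only (1.0).

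The plasma cell list had 0 of 8 tested genes past the threshold in any comparison by limma, with 3, 1 and 0 at an unadjusted p under 0.05 in the same order (0 by edgeR; 1, 0 and 0 by DESeq2). Irf4, which activated T cells also express, was its most abundant gene, with 1532.0, 1543.2 and 1500.8 normalized counts in the CD103 DC libraries, 565.0, 391.7 and 1447.6 in the CD8a DC libraries, and 958.6 and 1285.9 in the CD11b DC libraries. The CD8a DC libraries disagreed for this gene, with replicate 3 close to the CD103 DC libraries. Xbp1, the factor of the secretory programme, had 718.4 ± 61.6, 727.1 ± 130 and 839.1 ± 198 normalized counts by group. Among early B lineage genes, 0 of 4 tested passed by limma, with 2, 1 and 0 at an unadjusted p under 0.05 (0 by edgeR; 1, 0 and 0 by DESeq2): Dntt, the polymerase that adds bases at V(D)J joints, had 91.4 ± 82.0, 200.8 ± 88.6 and 163.1 ± 50.7 normalized counts, Cd93, a surface glycoprotein, had 1.90 ± 1.85, 41.4 ± 28.6 and 29.1 ± 19.6, and Rag1 and Rag2, the recombinase genes, were at 0 in all libraries. In the list of constant regions besides mu and delta, 3 of 8 genes in the table were tested and 0 passed by limma, edgeR or DESeq2 (0 at an unadjusted p under 0.05).

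**Figure D4:**
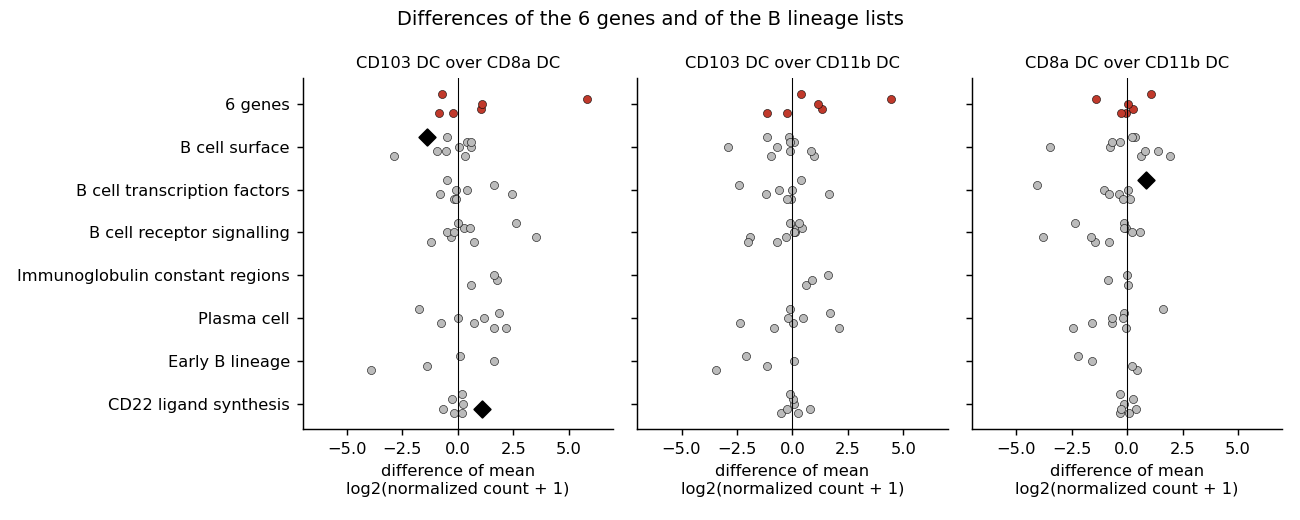
Differences of mean log2(normalized count + 1) (horizontal axes) for the 6 genes and for the tested genes of the 7 B lineage lists, in the 3 comparisons; each point is a gene, and black diamonds are list genes with an adjusted p under 0.05 by limma. The 6 genes carry no test; diamonds mark Tnfrsf13c at -1.38 and St6gal1 at 1.07 for CD103 DC over CD8a DC, and Pou2af1 at 0.87 for CD8a DC over CD11b DC.

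Across the 8 libraries, Pearson's r of log2(normalized count + 1) was 0.92 between Ighd and Zfp318, 0.91 between Zfp318 and Cd22 and 0.80 between Ighd and Cd22. Ighm gave r of -0.48, -0.73 and -0.75 with Ighd, Zfp318 and Cd22, and Cd79a and Cd79b had r of -0.08 with each other. All points share the same libraries and groups, so these values restate the group order and carry no p.

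A search among 10756 genes with a mean of at least 20 normalized counts gave the genes most like each of the 6 over the same 8 libraries. For Ighd they were Gcnt1, a glycosyltransferase of mucin-type glycans (r = 0.98; 411.4, 31.8 and 15.7 normalized counts in the CD103 DC, CD8a DC and CD11b DC groups), Tnfsf4, which encodes OX40 ligand (0.98), and Hemgn (0.98). For Zfp318 they were Ptger4, a prostaglandin E2 receptor (0.98; 504.0, 224.4 and 232.1), H2-Aa (0.97) and Hemgn (0.96; 423.2, 111.7 and 73.8), so Hemgn was named for both. Cd22 was most like Cd69, an early activation and retention receptor (0.99; 689.8, 268.6 and 343.4), Col23a1, a collagen gene (0.97), and Derl3, an endoplasmic reticulum protein gene of the plasma cell list (0.96; 94.3, 20.4 and 22.0). Ighm was most like Trp53inp1, a p53-induced gene (0.98), Ubxn2a (0.97) and Tmem30a, a flippase subunit gene (0.97). Cd79a was most like Cenpk, a kinetochore gene (0.96), Ints9, an Integrator subunit gene (0.95), and Ccdc138 (0.94), and Cd79b most like Tspan3, a tetraspanin gene (0.97), Nif3l1 (0.96) and Gatd1 (0.95). These values carry no test, and no shared function is implied.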

How the data were processed

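Gene expression was measured by RNA sequencing in 8 libraries. Reads were aligned with STAR 2.4.2a to GRCm38 and DESeq2 was used, per the submitters' processing notes; the sources used here do not give the counting program, annotation release or strand setting. The authors deposited 1 signal value per gene and library, a normalized count written to 1 decimal. Dividing by the value of 1 read gave whole reads within 0.1 read for 100% of low values in every library. The main test was limma 3.58.1 (trend) in R 4.3.3 on log2(normalized count + 1), with genes of mean at least 1, 3 group means, 5 residual degrees of freedom, Benjamini-Hochberg adjustment and a threshold of 0.05. A fold on this scale understates changes of low genes. The same script recovered seeded changes in simulated data, but these were placed only in genes of higher level. The simulated spread was assumed and not fitted to these libraries, so genes of low level were not covered. Alternatives were edgeR 4.0.16 and DESeq2 1.42.0 on the recovered reads, other pseudocounts, filters and scalings, a replicate block, and each library left out. The labels do not say whether replicate numbers pair the libraries. Same-numbered libraries had deviations from their group means correlated at -0.04 to 0.028. With groups of 2 or 3 libraries such deviations cannot exclude a weak pairing. List genes were named if they passed or were the 2 most abundant of a list, besides Cmas, Syk, Blnk, Blk, Rag1, Rag2 and single marker genes, chosen after their values were seen; neighbours and likeness followed fixed rules. The 6 genes and all lists were chosen with earlier results of these data known. Gene spans come from the deposited expression table, and exon lengths from GENCODE M21, matched by gene ID. Sequences are from M21 and RefSeq. P-values measure only the spread between these libraries.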

Additional observations from a re-analysis of the deposited data

How the results depend on the processing

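For CD103 DC over CD8a DC, the 273 genes called became 159 with no filter, 781 by DESeq2, 181 with the replicate number as a block and 3 to 480 with each library left out; it was 3 without either CD11b DC library (149 and 148 by edgeR), 42, 50 and 47 without CD103 DC replicates 1, 2 and 3, and 138 and 480 without CD8a DC replicates 1 and 3. The 2 list genes called became 1 with a pseudocount of 5, 0 with no filter (14 at an unadjusted p under 0.05), 1 by edgeR, 9 by DESeq2, 1 with the replicate block and 0 to 4 with each library left out. Tnfrsf13c was lower in every setting, with adjusted p of 0.0515 with no filter and up to 0.182 with a library left out (without CD11b DC replicate 3), and the adjusted p of St6gal1 was 0.0558 with a pseudocount of 5 and up to 0.266 without a CD11b DC library. For CD103 DC over CD11b DC, 63 genes became 336 by DESeq2 and 0 to 238 with each library left out (0 without CD11b DC replicate 3, with 1200 at an unadjusted p under 0.05 and 1 by edgeR; 238 without CD8a DC replicate 3), and 0 list genes became 2 by DESeq2 and 0 to 2. For CD8a DC over CD11b DC, 374 genes became 906 by DESeq2 and 0 to 537 (0 without either CD11b DC library, with 1689 and 1810 at an unadjusted p under 0.05 and 49 and 40 by edgeR), and the 1 list gene became 3 by DESeq2 and 0 to 2. The adjusted p of Pou2af1 reached 0.297 without CD11b DC replicate 2. The cause of these shifts was not tested; leaving out a library also leaves fewer degrees of freedom, and a CD11b DC group of 1 library is assumed to vary like the other groups. The replicate block changed no other count of calls by over 1.5 times. Among the 6 genes, the difference of Cd22 for CD103 DC over CD8a DC moved by more than the spread between libraries, to 3.95 with a pseudocount of 5; scaling to library totals kept the direction of Ighd (1.09), Zfp318 (1.16) and Cd22 (5.86) in that comparison. Depth limits Cd22 and Cd79a, which rest on at most 321 and 96 reads in a group.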
